A study of Mus musculus with 4 samples.

Results

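The genes described here encode the phagocyte NADPH oxidase and the mitochondrial superoxide dismutase: Cybb, Cyba, Ncf1, Ncf4, Rac1, Rac2 and Sod2. They were chosen by name, as the non-control probes of the array whose gene name is one of these symbols. The rule found 9 probes (18 spots) for the 7 genes, out of 39429 probes and 30165 genes and transcripts on the array. Cyba and Rac1 had 2 probes each and the other 5 genes had 1.

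The phagocyte NADPH oxidase moves electrons from NADPH across a membrane to oxygen and so makes superoxide, which phagocytes use against microbes. Its core is a membrane flavocytochrome made of gp91phox (Cybb, also called NOX2) and p22phox (Cyba). The organiser p47phox (Ncf1), the adaptor p40phox (Ncf4) and a Rac GTPase are among the proteins that join the core from the cytosol when the cell is stimulated. MnSOD (Sod2) turns superoxide into hydrogen peroxide inside mitochondria, and its gene is a textbook target of inflammatory signalling.

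RNA came from resident macrophages of the mouse peritoneum, on the C57BL/6 background, kept in medium with serum for 2 days. Cells of each genotype, wild type or CD163-deficient, were left untreated or given LPS, bacterial endotoxin, at 100 ng/mL for 1 day. Where 4 values stand together, their order is untreated wild type, LPS-treated wild type, untreated CD163-deficient, LPS-treated CD163-deficient. CD163 is the macrophage receptor for haemoglobin bound to haptoglobin, and how its deficiency was made, and how many mice gave the cells, are not given in the sources used here. Each group is 1 array, so no difference below has a replicate check or a p-value, and "higher" and "lower" compare single arrays.

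Levels are log2 processed intensities minus the 75th percentile of the same array, so that 0 stands for that percentile (909.6, 1325, 1258 and 1188 intensity units). Between 24711 and 26511 genes were well above background per array, and no spot was saturated. The spread known here is that between spots of 1 array: for 111 bright probes printed 10 times, it gives a difference between arrays a median SD of 0.12 to 0.13 (log2). Of 8 macrophage markers all were well above background on every array, 6 of them at a level of 0 or more (Adgre1, Csf1r, Itgam, Lyz2, Cd68, Icam2). The Cd163 probe was dim everywhere, at -5.47, -5.01, -6.0 and -5.48, though well above background on all 4 arrays. Whether this probe lies in a deleted part is not known, so it does not check the genotype. In bulk RNA, fewer cells of a type and less RNA per cell cannot be told apart.

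All 9 probes were well above background on all 4 arrays, and none of their spots was marked as an outlier. They belong to the brighter part of the array, from percentile 91.0 of all probes (Ncf1 in untreated wild type) to percentile 99.98 (Sod2 with LPS in both genotypes). Probes differ in how strongly they bind, so levels are compared between arrays for 1 probe and not between genes.

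The probe sites are given on the mouse assembly mm9, as annotated on the array. The Cybb site is on chromosome X from 9013216 to 9013275, near position 3854 of the transcript. The Ncf1 site is on chromosome 5 from 134696380 to 134696439, the Ncf4 site on chromosome 15 from 78092903 to 78092962, the Rac2 site on chromosome 15 from 78391452 to 78391511 and the Sod2 site on chromosome 17 from 13208074 to 13208133. Rac1 has probes near transcript positions 836 (chromosome 5, 144267722 to 144267781) and 1801 (144266757 to 144266816), here called its upstream and downstream probes. Cyba has a probe near position 644 (chromosome 8, 124948726 to 124948785) and another near position 243, whose 60 bases spread over 269 genome bases (124950893 to 124951161) and so cross an exon junction. That probe is shown because its whole length is matched by spliced RNA.
Cyba junction probe: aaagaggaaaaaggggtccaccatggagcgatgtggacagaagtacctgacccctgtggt

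The RefSeq promoter table (assembly GRCm38.p6) held 4 of the 7 genes, Cybb, Ncf1, Sod2 and Cyba. The 250 bases before each annotated start are printed because Cybb, Ncf1 and Sod2 were higher with LPS and Cyba differed by at most 0.26 (log2). Capitals mark matches, on either strand, to the PU.1 core GAGGAA, the CCAAT box CCAAT, the GC box GGGCGG, the GAS element TTCNNNGAA, the ISRE core (GAAA, any 2 bases, GAAA), the AP-1 site TGANTCA and the 10-base NF-kB consensus. The TATA box TATAAA was searched too and had no match in these 4 windows.
Cybb, chrX:9469325-9469574, minus strand: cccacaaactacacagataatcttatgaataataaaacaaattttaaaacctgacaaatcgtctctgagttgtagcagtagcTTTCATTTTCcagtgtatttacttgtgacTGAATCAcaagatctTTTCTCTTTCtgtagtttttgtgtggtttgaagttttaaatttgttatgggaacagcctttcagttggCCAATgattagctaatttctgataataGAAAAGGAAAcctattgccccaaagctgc
Ncf1, chr5:134229626-134229875, minus strand: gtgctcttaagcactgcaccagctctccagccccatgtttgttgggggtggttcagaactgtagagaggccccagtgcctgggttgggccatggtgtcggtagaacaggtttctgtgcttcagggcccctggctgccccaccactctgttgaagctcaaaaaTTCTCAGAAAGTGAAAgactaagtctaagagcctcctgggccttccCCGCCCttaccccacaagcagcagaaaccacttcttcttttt
Sod2, chr17:13007589-13007838, plus strand: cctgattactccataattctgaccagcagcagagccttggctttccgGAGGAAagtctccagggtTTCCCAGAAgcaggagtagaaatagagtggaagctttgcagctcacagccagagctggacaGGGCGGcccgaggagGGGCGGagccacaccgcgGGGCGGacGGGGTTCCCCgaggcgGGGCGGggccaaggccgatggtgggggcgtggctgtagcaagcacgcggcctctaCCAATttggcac
Cyba, chr8:122432941-122433190, minus strand: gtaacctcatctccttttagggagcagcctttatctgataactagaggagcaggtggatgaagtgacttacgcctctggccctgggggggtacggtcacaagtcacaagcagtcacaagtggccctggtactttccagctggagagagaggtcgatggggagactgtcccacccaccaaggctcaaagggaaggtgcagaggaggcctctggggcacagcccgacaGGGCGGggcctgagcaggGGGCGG

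The windows differ in composition and in the matches they hold. The Cybb window is poor in G and C (34% of its bases, against a median of 52.4% over 32851 promoters), and 3 ISRE cores lie in it, a sequence found in 2.98% of promoters. It also holds an AP-1 site (6.75% of promoters) and, 56 bases before the start, a CCAAT box (33.8%). The Ncf1 window (54.4% G and C) has a GAS element (7.02% of promoters) that overlaps an ISRE core, with a GC box (32.7%) nearer to the start. The Sod2 window (63.6%) has 4 GC boxes, a PU.1 core (23.3%), a GAS element, a CCAAT box and 1 stretch that matches the NF-kB consensus on either strand, 83 bases before the start (3.90%). The Cyba window (60% G and C) has 2 GC boxes and none of the other motifs. The shares are over all promoters and are not matched for G and C content, so they do not give how often a motif occurs in windows of like composition. These matches describe letters in the windows, and binding was not measured.

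**Figure D1:**
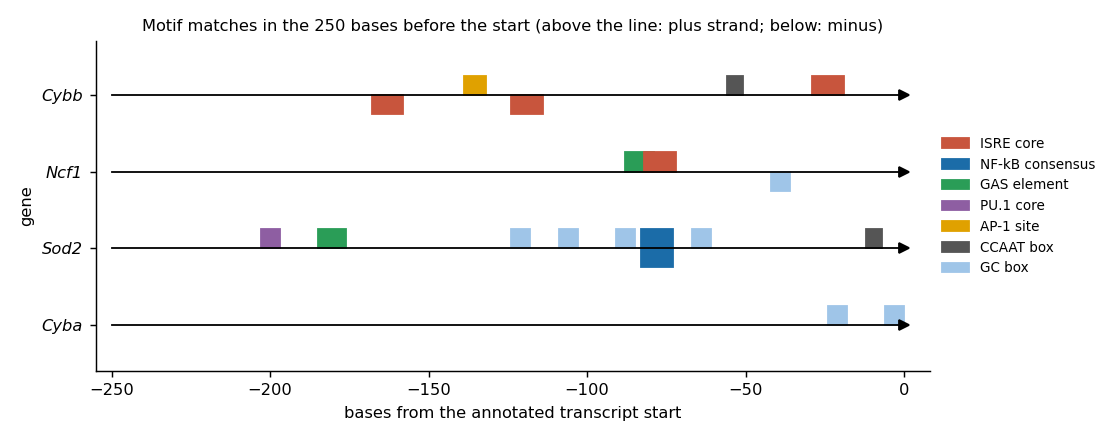
Motif matches in the 250 bases before the annotated start of 4 genes, with distance in bases on the horizontal axis, plus-strand matches above each line and minus-strand matches below. Cybb holds 3 ISRE cores, Sod2 holds 4 GC boxes and 1 stretch that matches the NF-kB consensus on both strands, and Cyba holds 2 GC boxes alone.

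With LPS, wild-type macrophages had higher levels of 4 of the 7 genes by 2-fold or more: Sod2, Cybb, Ncf1 and Rac2. Over all 26690 genes compared, 6.48% were 2-fold or more higher and 5.02% lower (11.5% either way). In CD163-deficient macrophages 3 genes were past 2-fold, Sod2, Ncf1 and Rac2 (background 7.24% higher and 5.51% lower of 26160 genes, 12.7% either way), and Cybb was 1.59-fold higher. Cyba, Ncf4 and Rac1 were within 2-fold in both genotypes, and no member was 2-fold lower. The median of the 7 differences was 1.20 in wild type and 0.67 in the deficient cells, beside 0.0060 and 0.035 for all genes compared. Without Sod2 the medians of the members were 0.56 and 0.46. The brightest genes, with a mean level of 4 or more, had a median of -0.32 in wild type (n = 1670 genes, 10th to 90th percentile -0.77 to 0.90). In the deficient cells their median was -0.022 (n = 1643 genes, -0.51 to 1.26). These ranges hold the values of Cyba, Ncf4 and Rac1, though the levels of Rac1 were below 4 on every array.

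**Figure D2:**
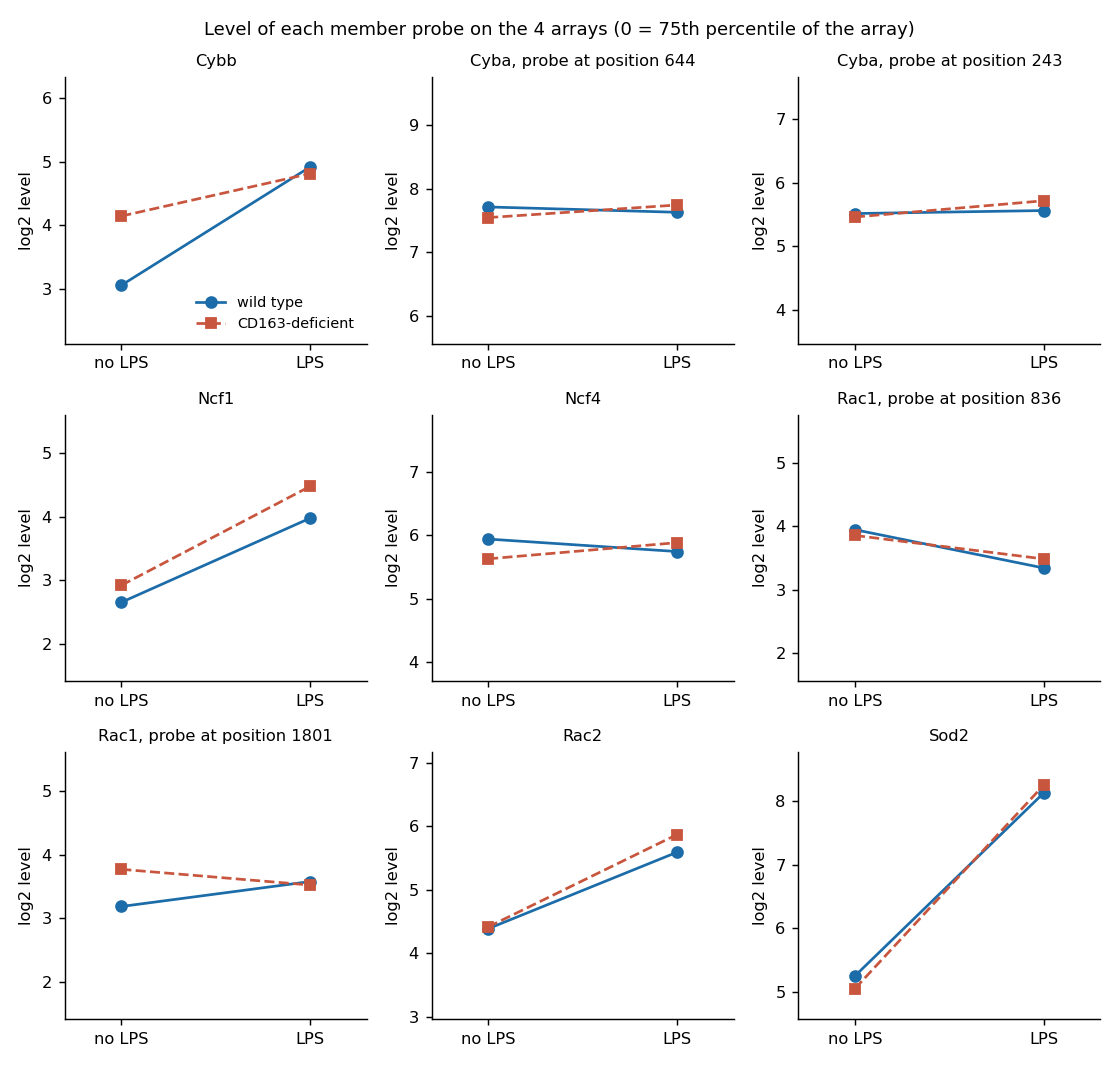
Log2 level of each of the 9 probes on the 4 arrays, without and with LPS, for wild type (blue circles) and CD163-deficient cells (red squares), with 1 array per point and the same height of 4.2 log2 units in every panel. Sod2 has the steepest lines, the Cybb lines start apart (3.06 and 4.15) and end close (4.92 and 4.82), and the Rac1 probes slope differently in wild type.

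Among the membrane subunits, Cybb and Cyba behaved differently. Cybb, the catalytic subunit, had levels of 3.06, 4.92, 4.15 and 4.82. The untreated wild-type array was the low one, and the other 3 lay between 4.15 and 4.92. Its processed intensities were 7572, 40153, 22277 and 33458. The LPS difference was 1.86 in wild type (3.64-fold) and 0.67 in the deficient cells.

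Cyba, the partner that stabilises gp91phox, was close to flat. Its probe near position 644 read 7.71, 7.63, 7.55 and 7.74. Its junction probe, printed above, read 5.51, 5.56, 5.46 and 5.71. The LPS difference was -0.084 and 0.047 in wild type and 0.20 and 0.26 in the deficient cells on these probes. Both therefore spanned 0.26 or less over the 4 arrays, while Cybb spanned 1.86. The brighter probe ranked between 30 and 54 among all probes of an array, at 44.8% to 55.1% of the intensity of the brightest probe.

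The cytosolic subunits also split. Ncf1, the organiser that links the cytosolic complex to p22phox, was at 2.65 untreated and 3.98 with LPS in wild type, and at 2.92 and 4.48 in CD163-deficient cells. Both arrays with LPS were above both without it, and how many of all genes had this order was not counted. The difference was 1.33 in wild type (2.51-fold) and 1.56 in the deficient cells (2.95-fold). Among all genes compared, 4.12% were at least that much higher in wild type and 3.77% in the deficient cells. Ncf4, the adaptor that binds a phosphoinositide of phagosomes, was at 5.94, 5.74, 5.63 and 5.88. Its groups overlapped, with LPS differences of -0.20 and 0.25.

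Rac2, the Rac GTPase of blood cells, was at 4.39 untreated and 5.59 with LPS in wild type, and at 4.42 and 5.87 in CD163-deficient cells. Its probe was printed 10 times, where each other member probe has a single spot. The SD between its spots was 0.07, 0.11, 0.09 and 0.07 (log2, n = 10 spots of 1 array). The ranges of the spots with and without LPS did not overlap in either genotype. Spots of 1 array read the same labelled RNA, so they do not replace replicate samples. How many other probes printed 10 times had ranges without overlap was not counted. In wild type the processed intensities of the spots ran from 17866 to 20891 without LPS and from 58087 to 74388 with it. They are not scaled to the 75th percentile, which was 909.6 and 1325 on these arrays. Their gap is therefore wider than the scaled LPS difference. The LPS difference was 1.20 in wild type (2.30-fold) and 1.45 in the deficient cells (2.74-fold). Among all genes compared, 4.81% were at least that much higher in wild type and 4.13% in the deficient cells.

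Rac1, the GTPase expressed in most tissues, gave different answers on its probes. The upstream probe read 3.95, 3.34, 3.86 and 3.49, so both arrays with LPS were lower (-0.60 and -0.37). The downstream probe read 3.18, 3.58, 3.77 and 3.52. Its LPS difference was 0.39 in wild type and -0.25 in the deficient cells. The probes share the lower value with LPS in CD163-deficient cells and oppose each other in wild type, where the downstream probe was at its lowest without LPS. The sign of the Rac1 difference in wild type is therefore not settled.

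Sod2 had the largest LPS difference of the 7 genes. Its levels were 5.25, 8.14, 5.05 and 8.26, from processed intensities of 34677, 372489, 41728 and 363763. Sod2 was higher with LPS by 2.88 in wild type (7.38-fold) and 3.21 in the deficient cells (9.23-fold). Of all genes compared, 0.746% were at least that much higher in wild type and 0.742% in the deficient cells. With LPS the Sod2 probe was the 7th brightest of 39429 in wild type and the 6th in CD163-deficient cells, at 69.9% and 68.0% of the brightest probe.

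**Figure D3:**
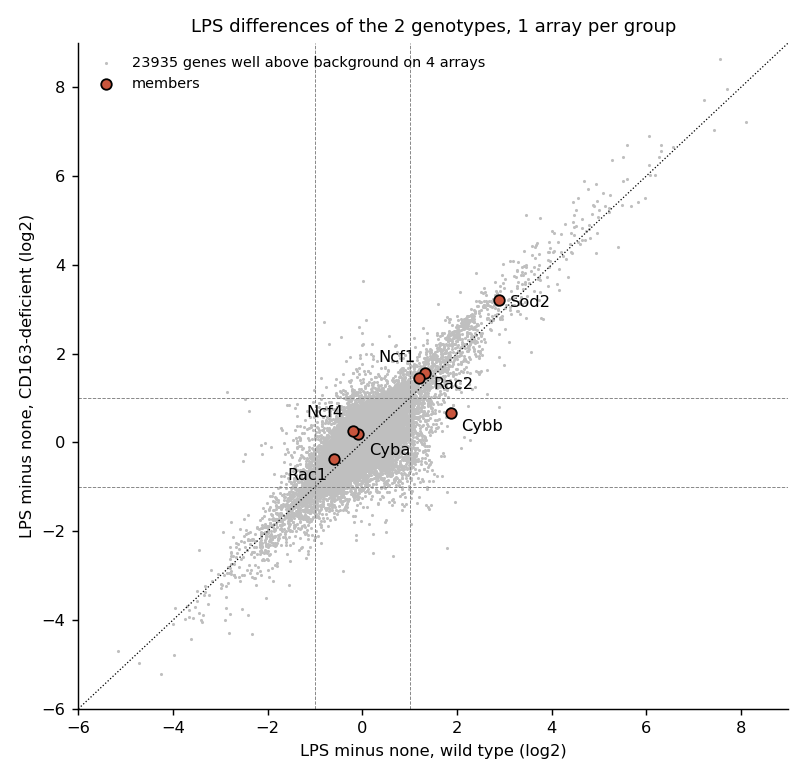
LPS differences (log2), wild type on the horizontal axis and CD163-deficient cells on the vertical axis, for 23935 genes well above background on all 4 arrays (grey) and the 7 members (red, by the brighter probe of Cyba and Rac1), with dashed lines at 2-fold and a dotted line of equal differences. Sod2 (2.88 and 3.21), Ncf1 and Rac2 lie near the dotted line, and Cybb (1.86 and 0.67) lies below it.

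Without LPS, Cybb was the member that set the genotypes apart. In the deficient cells it was 2.13-fold higher (1.09, levels 4.15 and 3.06), and no other member was past 2-fold, with 1.31% of 25937 genes higher and 1.15% lower at that size (2.46% either way). Of the 12990 genes that reached -2 on each of these arrays, 0.547% were past 2-fold either way and 33 (0.254%) were higher by at least as much as Cybb. The other representative probes ran from -0.31 for Ncf4, over -0.20 for Sod2, -0.17 for Cyba, -0.091 for Rac1 and 0.029 for Rac2, to 0.27 for Ncf1. The downstream Rac1 probe was higher by 0.59. The 1608 genes with a mean level of 4 or more had a median of -0.23 in this comparison (10th to 90th percentile -0.43 to 0.056), so the small negative values of Ncf4, Sod2 and Cyba lay within the range of other bright genes. With quantile normalization Cyba, Sod2 and Rac1 turned to 0.042, 0.014 and 0.047.

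With LPS, the genotypes were close for every member but Ncf1. Cybb was at -0.11, Cyba at 0.11, Sod2 at 0.12, Ncf4 and Rac1 at 0.14 each, Rac2 at 0.28 and Ncf1 at 0.50 (CD163-deficient minus wild type). None reached 2-fold, where 1.15% of 26679 genes did on the higher and 1.09% on the lower side (2.25% in all), and 0.183% of the 13145 genes that reached -2 on both arrays did. The 1753 genes with a mean level of 4 or more had a median of 0.082 (10th to 90th percentile -0.084 to 0.29). Ncf1 lay above that range, with levels of 4.48 and 3.98, and had the widest gap of the 7 genes between LPS-treated arrays. Of the 13145 genes that reached -2 on both arrays, 162 (1.23%) were higher by at least as much. Ncf1 was at 0.27 between untreated arrays.

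**Figure D4:**
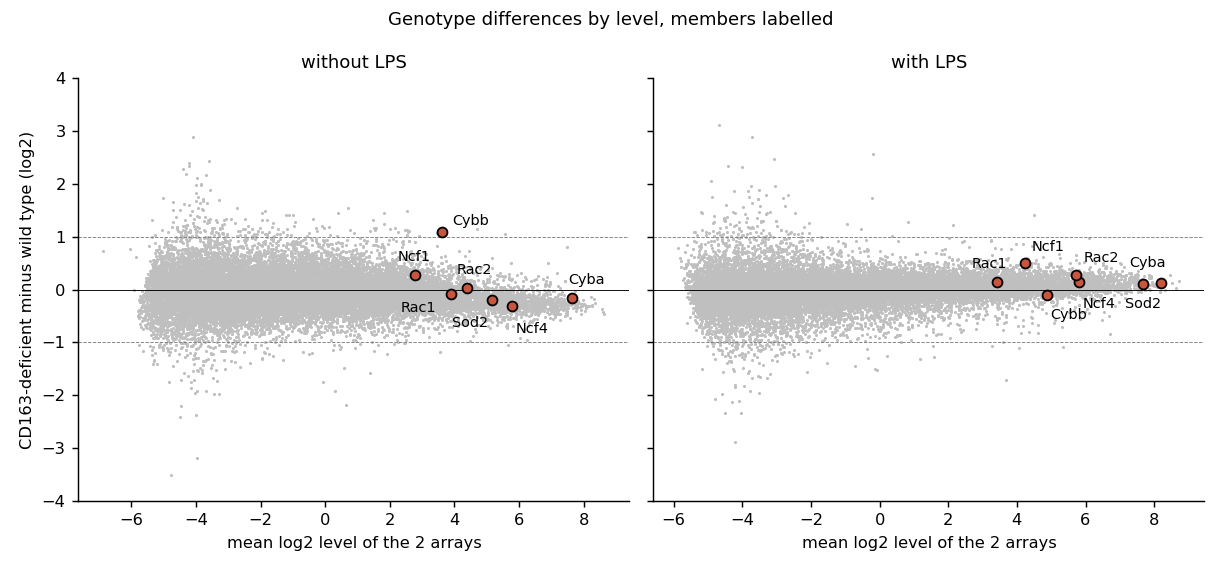
Difference between genotypes (CD163-deficient minus wild type, log2) against the mean level of the 2 arrays compared, without LPS (left) and with LPS (right), for genes well above background on all 4 arrays (grey) and the 7 members (red), with dashed lines at 2-fold. Cybb lies past the 2-fold line without LPS (1.09) and near 0 with LPS (-0.11), and the cloud of bright genes dips below 0 without LPS (median -0.23 at a mean level of 4 or more).

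CD163-deficient cells had the smaller LPS response of Cybb, by a 2.29-fold ratio (-1.19, log2). It was the 1 member past 2-fold here, where 2.33% of 23935 genes were lower and 1.51% higher by that size (3.84% either way). Of 12446 genes that reached -2 on every array, 1.05% were lower and 1.25% were past 2-fold either way. The other 6 representative probes were positive, from 0.23 (Ncf1, Rac1) and 0.25 (Rac2) through 0.28 (Cyba) and 0.32 (Sod2) to 0.45 (Ncf4). The 1667 genes with a mean level of 4 or more had a median of 0.29 (10th to 90th percentile -0.029 to 0.53). For all genes compared the median was 0.084. These 6 members lay in the range of the bright genes, though Ncf1 and Rac1 had mean levels below 4. With quantile normalization Cyba turned to -0.042, and the other 5 were between 0.021 (Rac2) and 0.15 (Ncf4). The downstream Rac1 probe was at -0.64.

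The Cybb gap between responses sat in the arrays without LPS (1.09) and not in those with LPS (-0.11). This was common among genes with a lower response: 131 genes that reached -2 on every array had a response lower by 2-fold or more. In 114 of them (87%) the genotype gap was likewise larger without LPS. That share over all 12446 such genes was not counted. Of the 131 genes, 102 had their lowest level in untreated wild type, as Cybb did, beside 22.5% of the 12446 genes. A low untreated wild-type level itself makes the response difference more negative. Cybb rests on a single spot per array. The 50 spots around it that reached -2 on every array had a median genotype difference without LPS of -0.034, with a 10th to 90th percentile of -0.38 to 0.39. Of the macrophage markers, Lyz2 was higher in CD163-deficient cells without LPS by 0.82 and Cd68 by 0.32, while Icam2 was at -0.46. The 8 markers had a median of 0.010, and their intensities, each divided by the 75th percentile, summed to 594, 658, 700 and 743. Without Lyz2, the brightest of them, the sums were 459, 449, 462 and 489. The part of these values in the Cybb difference was not tested. What belongs to the untreated wild-type array and what to the genotype cannot be told apart.

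Neutrophils are the cells best known for this oxidase, so their markers were set beside the LPS differences of Ncf1, Rac2 and Cybb. Of 10 markers 8 were well above background on every array and Ngp on none. In wild type, elastase (Elane) was at 1.36 untreated and 1.15 with LPS, Mpo at -2.80 and -3.06, S100a9 at -4.35 and -4.31, and Cxcr2 at -4.57 and -5.54. S100a8 was higher with LPS by 2.47, Ly6g by 2.23 and Camp by 3.90, with similar values in CD163-deficient cells (2.95, 2.05 and 3.73). The scaled intensities of the list summed to 62.9, 67.8, 56.3 and 68.1. Most of that was Csf3r, the receptor for G-CSF, at 5.84, 5.56, 5.68 and 5.49, and without it the sums were 5.845, 20.6, 5.10 and 23.1. Of 8 stromal and mesothelial markers, all well above background on every array, 6 were lower with LPS in both genotypes (list medians -0.38 and -0.85), among them the mesothelial genes Upk3b (-1.78 and -1.31) and Msln (-1.56 and -1.81). Pdpn (1.58 and 2.05) and Dcn (1.15 and 0.22) were higher, and the list summed to 49.2, 82.6, 34.2 and 59.2. The part of these cells in the results was not tested.

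Genes with the profile most like a member were sought for the 4 members that spanned 1 or more (log2), over the 4 arrays and among the same 12446 genes, as the smallest root mean square distance between centred levels. Sod2 was nearest to Pilrb1 (0.034), Rtp4 (0.045) and Mlkl (0.062), and 40 named genes lay within 0.2 of it. Rac2 was nearest to Dusp16 (0.023), Lpcat2 (0.030) and St3gal1 (0.040), with 267 within 0.2. Ncf1 was nearest to Tlr1 (0.051), Nfkb2 (0.060) and Mocs1 (0.080), with 128 within 0.2. Cybb had the fewest near profiles of the 4 members, 9 within 0.2 and none within 0.1, led by Tbk1 (0.12), Keap1 (0.13) and Map2k1 (0.14). Near profiles of other genes with a similar span were not counted. With 4 single arrays a likeness describes these arrays alone.

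Of 15 other genes of the oxidase family all were on the array and 13 were well above background on all 4 arrays. In wild type 1 of 14 compared was 2-fold or more higher with LPS and none lower (median 0.22), beside 6.48% and 5.02% of all genes. In CD163-deficient cells 2 of 15 were higher and none lower (median 0.12), beside 7.24% and 5.51%. Cybc1, the chaperone that lets gp91phox and p22phox accumulate, was higher with LPS in both, by 1.20 and 1.16, from levels of 2.39 and 2.47. The voltage-gated proton channel Hvcn1, which carries charge out while the oxidase works, was higher by 0.49 and 0.31. Rac3 was at 0.69 and 0.33, Rap1a at 0.60 and -0.14 and Rap1b at 0.0017 and 0.21.

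The non-phagocyte oxidases and their partners had negative levels on all 4 arrays. Nox1 was between -2.77 and -2.13 on the 4 arrays, Noxo1 between -1.52 and -1.15, Noxa1 between -3.59 and -3.50, Duox1 between -3.20 and -2.99, Duox2 between -3.60 and -2.87 and Duoxa1 between -2.11 and -1.94. Nox4 ran from -3.99 to -3.03 on its brightest probe, and its 3 probes disagreed in sign. It was the 1 gene of this list with a 2-fold different LPS response (-1.74). Nox3 was well above background on just the CD163-deficient array with LPS, and it is the second gene counted as higher there.

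Among 22 genes that control Rac or phosphorylate the oxidase, 1 was 2-fold or more higher and 2 lower with LPS in wild type (median -0.014), and 2 were higher and 2 lower in CD163-deficient cells (median 0.14). Over all genes compared these shares were 6.48% higher and 5.02% lower in wild type, and 7.24% and 5.51% in the deficient cells. The Rac inhibitor Arhgdib was higher by 0.85 and 1.39. The kinase Syk was higher by 0.86 and 0.97, short of 2-fold. The exchange factor Vav3 was lower by 1.35 and 1.70 on the log2 scale.

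Other genes that remove superoxide and peroxide went both ways. Of 19 in the list, 3 were 2-fold or more higher and 5 lower with LPS in wild type (median -0.18), and 4 were higher and 3 lower in CD163-deficient cells (median 0.28). The background was 6.48% higher and 5.02% lower in wild type, and 7.24% and 5.51% in the deficient cells. Glutaredoxin (Glrx) was higher by 3.11 and 3.05, extracellular superoxide dismutase (Sod3) by 2.01 and 2.20 and peroxiredoxin 5 (Prdx5) by 1.46 and 1.70. The secreted glutathione peroxidase gene Gpx3 was at -1.55 and -2.14. Sod1, the cytosolic superoxide dismutase, is named after its values were seen. Its levels were 5.46, 4.46, 4.86 and 4.56, an LPS difference of -1.0 and -0.30, while Sod2 and Sod3 were higher in both.

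Of 10 genes that supply NADPH, the electron donor of the oxidase, none was 2-fold different with LPS in wild type (median -0.13), and 1 was higher and 1 lower in CD163-deficient cells (median 0.038). Of all genes compared, 6.48% were higher and 5.02% lower in wild type, and 7.24% and 5.51% in CD163-deficient cells. G6pdx, which opens the pentose phosphate pathway, was higher by 0.50 and 0.71, and Taldo1 of the same pathway was at -0.87 and -0.67. Malic enzyme (Me1) was higher by 0.59 and 1.16. Isocitrate dehydrogenase 1 (Idh1) was at -0.68 and -1.76, and its LPS response differed between genotypes by -1.08.

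**Figure D5:**
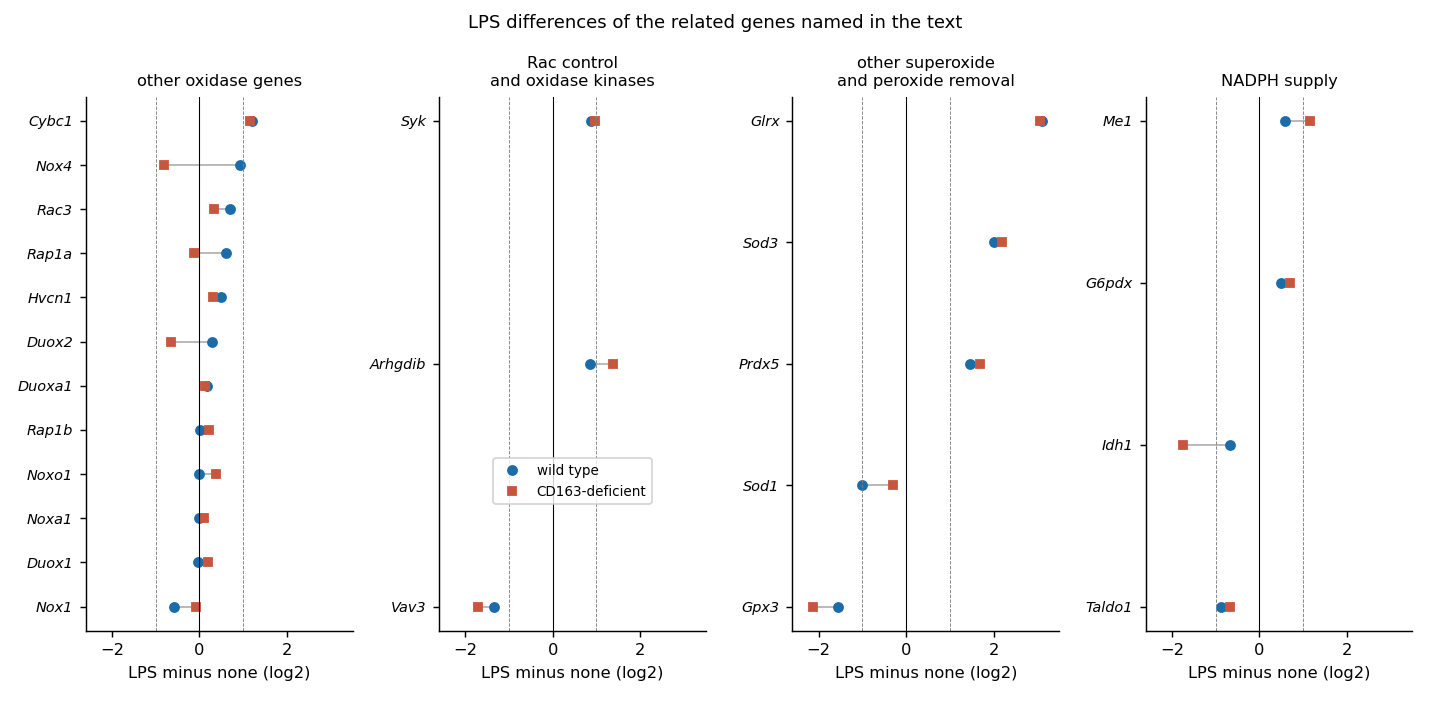
LPS differences (log2) of the related genes named in the text and well above background on all 4 arrays, by list, with wild type as blue circles and CD163-deficient cells as red squares joined by a grey line, and dashed lines at 2-fold. Cybc1 (1.20 and 1.16), Glrx (3.11 and 3.05) and Sod3 (2.01 and 2.20) are past 2-fold in both genotypes.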

How the data were processed

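Total RNA was labelled with Cy3 and hybridised to 1-colour Agilent arrays, 1 array for each of 4 groups. The deposited spot intensity came from Feature Extraction, version 10.7.1.1 per the file headers and 9.5.1.1 per the submitters' processing notes. That intensity has background and spatial trends removed within the array. It was taken as log2 minus the 75th percentile of non-control spots of the array, and spots of a probe were averaged. The probe with the highest mean level stood for a gene. Names came from RefSeq accessions (26761 probes), current symbols (3814) or older symbols (639), and 8215 probes kept the name in the file.

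A probe was well above background where at least 50% of its spots were. Genes entered a comparison when this held on at least 1 array compared, and on all 4 for the difference between responses. An array without detection was set to the higher of its own level and the lowest level well above background. Brighter genes have a level of -2 or more on every array compared. Genes were counted at 2-fold or more. With 1 array a group no test was run.

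The members and gene lists were chosen with earlier results of these data known. The text names all members and every probe, the other oxidase genes well above background on all 4 arrays, up to 4 genes of each other list with the largest LPS differences, and the 3 nearest profiles of members that spanned 1 or more. Some genes that this rule selects are counted in their lists but not reported here. The alternatives were quantile normalization, normexp with an offset of 50 (limma 3.58.1) and another scaling (the median of probes detected on all arrays). Others were the table of values the authors deposited (intensity, equal medians of 175.3 in all columns), the mean of all probes and 2 other detection filters. The other Rac1 probe and brighter background genes were added after the values were seen. The deposited values had a median gap of 0 (log2) to a quantile normalization of the processed signal. Some values differed slightly, such as the LPS difference of Rac2 in wild type (1.23 against 1.24). Counting and profile distances were tested on simulated data. Python 3.11.15 and R 4.3.3 were used.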

Additional observations from a re-analysis of the deposited data

Results flagged for a closer look

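Wild-type and CD163-deficient LPS differences had opposite signs on 3 probes, and the difference between genotypes was not tested, since each group is 1 array. The Ncf4 probe was at -0.20 in wild type and 0.25 in the deficient cells. The downstream Rac1 probe was at 0.39 in wild type and -0.25 in the deficient cells, where the upstream probe was negative in both. The brighter Cyba probe was at -0.084 in wild type and 0.20 in the deficient cells, and with quantile normalization it was positive in both (0.19 and 0.15).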

How the results depend on the processing

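Each of the 9 member values of 2-fold or more stayed so in the same direction under each of the 8 alternatives. The counts of members past 2-fold were equal under all of them. Most of this was fixed in advance. The 9 values belong to Cybb, Ncf1, Rac2 and Sod2, which have a single probe each. The mean of all probes and the other Rac1 probe therefore could not change them. The detection filters could not change any member value, since all 7 genes were well above background on every array. The deposited value table gave nearly the same member values as the quantile normalization. Cybb without LPS ran from 1.09 to 1.21 between genotypes, and its response difference from -1.41 to -1.18. Of 280 member values under alternatives, 47 moved by more than the median spread of single spots. Medians of the 7 genes moved with quantile normalization and with the deposited value table: to 0.047 and 0.048 between genotypes without LPS (from -0.091), to 0.40 and 0.39 for LPS in CD163-deficient cells (from 0.67), and to 0.035 and 0.037 for the response difference (from 0.25). Between genotypes without LPS the other Rac1 probe and the mean of all probes gave a median of 0.029. The count of all genes past 2-fold depended on the dim genes: without LPS, 638 genes differed between genotypes, 154 with normexp (29.9% of them higher, against 53.1%), 402 with detection on both arrays, 1543 with no filter and 71 at a level of -2 or more. With LPS they were 600 (51.3% higher), and 122 with normexp (73.0% higher), 369 with detection on both arrays, 1514 with no filter (37.6% higher) and 24 at a level of -2 or more, and 61.3% were higher in the value table. For LPS in wild type the count of 3070 was 2024 with normexp, and in CD163-deficient cells 3335 was 2138. For the response difference 919 was 399 with normexp (62.4% higher, against 39.4%), 3173 with no filter and 156 at a level of -2 or more. With normexp the median of all genes was -0.20 for LPS in wild type, -0.17 between genotypes without LPS and 0.19 for the response difference. No paired analysis was possible because each group holds 1 array.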
